A study of Mus musculus with 63 samples.

Results

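The dorsal hippocampus of adolescent male mice was compared between animals that had been fear conditioned (FC) and animals that had not (noFC). The members are the male libraries of the gene count table, 31 of the 63 libraries of the series, of which 15 are FC and 16 are noFC. The mice belonged to the inbred strains C57BL/6J (15 libraries) and DBA/2J (16 libraries), and every animal had received an acute injection of either saline (15 libraries) or ethanol at 1.5 g/kg (16 libraries). Each combination of strain, injection and conditioning held 4 libraries, except conditioned C57BL/6J males given saline, which held 3. All animals were adolescents and all carried an injection, so the noFC groups are injected, untrained mice and not naive mice. The labels give no interval between training and dissection, so the time point of the response is not known here. Nothing in the labels says whether a library came from a single animal, and p-values measure the spread between libraries.

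Fear conditioning pairs a place or a cue with a mild foot shock, and the dorsal hippocampus is needed to form the memory of the place. Neurons that fire strongly switch on immediate early genes within minutes, through calcium and kinase signals that act on transcription factors already present in the cell. These genes encode transcription factors such as Fos and effector proteins such as Arc, and later genes such as Bdnf follow. Because a dissected hippocampus holds several subfields and can carry neighbouring tissue, markers of CA1, CA3, the dentate gyrus, the choroid plexus, the meninges and the striatum were measured in the same libraries. In bulk tissue, fewer cells of a type and less RNA per cell cannot be told apart.

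Library depth ranged from 21027659 to 47673885 counts assigned to genes (median 27291515). Xist lay between 0.125 and 7.72 CPM (counts scaled to library size) in the libraries labelled male and at 734 or more in those labelled female, and Ddx3y separated the sexes in the other direction. Choroid plexus RNA varied most: the 14 choroid plexus markers, including Ttr (transthyretin), summed to between 35.9 and 11480 CPM. Their mean log2 CPM was above 3 in 8 of 15 FC and 4 of 16 noFC libraries. In the titles the letters A and C belong to FC and the letters B and D to noFC, so whatever those letters stand for cannot be told apart from conditioning.

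The promoters of Fos and of Ccn1, Apold1 and Dusp1, a transcription factor and 3 effectors with a matched promoter and a motif in it, are shown first, because sequence elements near the start site are what the activity signals act on. RefSeq promoters on GRCm38.p6 were matched for 33 of the 41 immediate early genes listed. The 150 bases before the annotated start are printed 5′ to 3′ on the gene's strand, and capitals mark the letters TGACG (the half-site of the cyclic AMP response element, searched on both strands), the full element TGACGTCA, and TATAAA (searched on both strands). Fos lies at chr12:85473740-85473889 on the plus strand, Ccn1 at chr3:145649986-145650135 on the minus strand, Apold1 at chr6:134981851-134982000 on the plus strand and Dusp1 at chr17:26508473-26508622 on the minus strand.
Fos: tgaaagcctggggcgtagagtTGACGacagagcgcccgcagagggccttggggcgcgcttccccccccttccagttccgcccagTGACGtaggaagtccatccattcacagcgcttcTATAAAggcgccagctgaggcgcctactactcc
Ccn1: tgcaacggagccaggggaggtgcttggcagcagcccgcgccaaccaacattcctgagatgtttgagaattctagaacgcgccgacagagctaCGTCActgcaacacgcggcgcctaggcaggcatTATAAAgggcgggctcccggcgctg
Apold1: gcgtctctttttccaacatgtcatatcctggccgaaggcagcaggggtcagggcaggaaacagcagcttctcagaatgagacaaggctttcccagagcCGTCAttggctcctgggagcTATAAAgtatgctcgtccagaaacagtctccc
Dusp1: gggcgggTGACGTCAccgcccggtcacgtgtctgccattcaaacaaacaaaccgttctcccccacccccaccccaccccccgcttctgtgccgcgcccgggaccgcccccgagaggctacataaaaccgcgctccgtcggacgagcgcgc

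Fos holds TGACG at -129 and -66 from the start and TATAAA at -33. Ccn1 and Apold1 hold TGACG on the other strand, at -58 and -52, and TATAAA at -25 and -32. Dusp1 holds the full element at -143. TGACG, which is also part of the full element, was found in 15 of the 33 matched windows (45.5%) and in 13.3% of all 32851 promoter windows of this length. TGACGTCA was found in 3 of the 33 (9.09%) against 1.36% of all windows, and TATAAA in 5 of the 33 (15.2%) against 7.57%. These are matches of letters, not measured binding.

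Immediate early transcription factors had mostly higher values after conditioning, but no single gene passed the threshold. Of 24 members, 20 had a positive log2 difference (FC minus noFC, strain and drug in the model), with a median of 0.14, while over all 19583 genes tested the median was 0.0031 and 51.4% were positive. In edgeR's quasi-likelihood test with Benjamini-Hochberg adjustment, called here at an adjusted p under 0.05, none of the 24 and 0% of all genes were called. At an unadjusted p under 0.05, 11 of the 24 were higher and none lower, where 8.1% of all genes were higher and 7.89% lower. This and the other gene lists were chosen with earlier results of these data known. Their shares beside those of all genes are therefore descriptions and not tests.

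Fos, the transcription factor most used as a record of neuronal firing (chr12:85473890-85477273, GRCm38), had 16.7, 26.2 and 42.4 CPM as the lowest, median and highest value of the 15 FC libraries, and 12.2, 18.3 and 31.5 in the 16 noFC libraries. The groups overlapped, but 14 of 15 FC libraries lay above the noFC median and 15 of 16 noFC libraries lay below the FC median. The difference was 0.49 on the log2 scale (SE 0.09, 95% interval 0.31 to 0.68, 1.41-fold), with an adjusted p of 0.0583 in edgeR. Conditioned C57BL/6J males given saline had 24.6 to 27.2 CPM against 15.5 to 18.5 in their controls, with no overlap. In DBA/2J males given saline the ranges were 23.3 to 32.3 and 22.4 to 31.5, which overlapped almost wholly.

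Fosb, a relative of Fos that pairs with the same partners, differed by 0.32 (SE 0.10, adjusted p 0.171). Egr2, a zinc finger factor of the same early wave, differed by 0.35 (SE 0.12, adjusted p 0.191), and Junb by 0.15 (SE 0.05, adjusted p 0.2). Klf6 differed by 0.17 (SE 0.04) and Btg2, an antiproliferative early gene, by 0.15 (SE 0.04), each with an adjusted p of 0.168. The factors most tied to neuronal firing were not all among the larger differences. Npas4, which neurons induce only through calcium entry, differed by 0.14 (SE 0.07, adjusted p 0.313). Egr4 differed by 0.10, Nr4a1 by 0.09, Nr4a2 by 0.09 and Egr1 by 0.07, with adjusted p between 0.407 and 0.706.

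Immediate early effectors, the early genes whose products are not transcription factors, showed the same direction in 16 of 17 members, with a median log2 difference of 0.09. None was called in edgeR. At an unadjusted p under 0.05, 8 of the 17 were higher and none lower, where 8.1% of all genes were higher and 7.89% lower. Ccn1, a secreted matrix protein (also named Cyr61) that vascular cells and neurons make early after stimulation (chr3:145646976-145649981), had the largest difference of the list. Its lowest, median and highest values were 4.59, 6.56 and 15.7 CPM in FC and 3.11, 4.65 and 7.77 in noFC libraries. Of the FC libraries 14 of 15 lay above the noFC median, and 7 lay above the highest noFC library. The difference was 0.64 (SE 0.12, 95% interval 0.41 to 0.88, 1.56-fold), with an adjusted p of 0.0583 in edgeR.

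Arc, which neurons use to remove AMPA receptors from synapses (chr15:74669083-74672570), had 184, 252 and 322.2 CPM in FC and 156, 194 and 302 in noFC libraries, again as lowest, median and highest. Here 12 of 15 FC libraries lay above the noFC median. The difference was 0.29 (SE 0.06, adjusted p 0.128). Sik1, a kinase induced by cyclic AMP, differed by 0.45 (SE 0.11), and Apold1, an early gene of brain endothelium, by 0.36 (SE 0.09), each with an adjusted p of 0.168. Dusp1, a phosphatase that switches off MAP kinases, lay above the noFC median in 15 of 15 FC libraries and differed by 0.32 (SE 0.09, adjusted p 0.169).

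**Figure D1:**
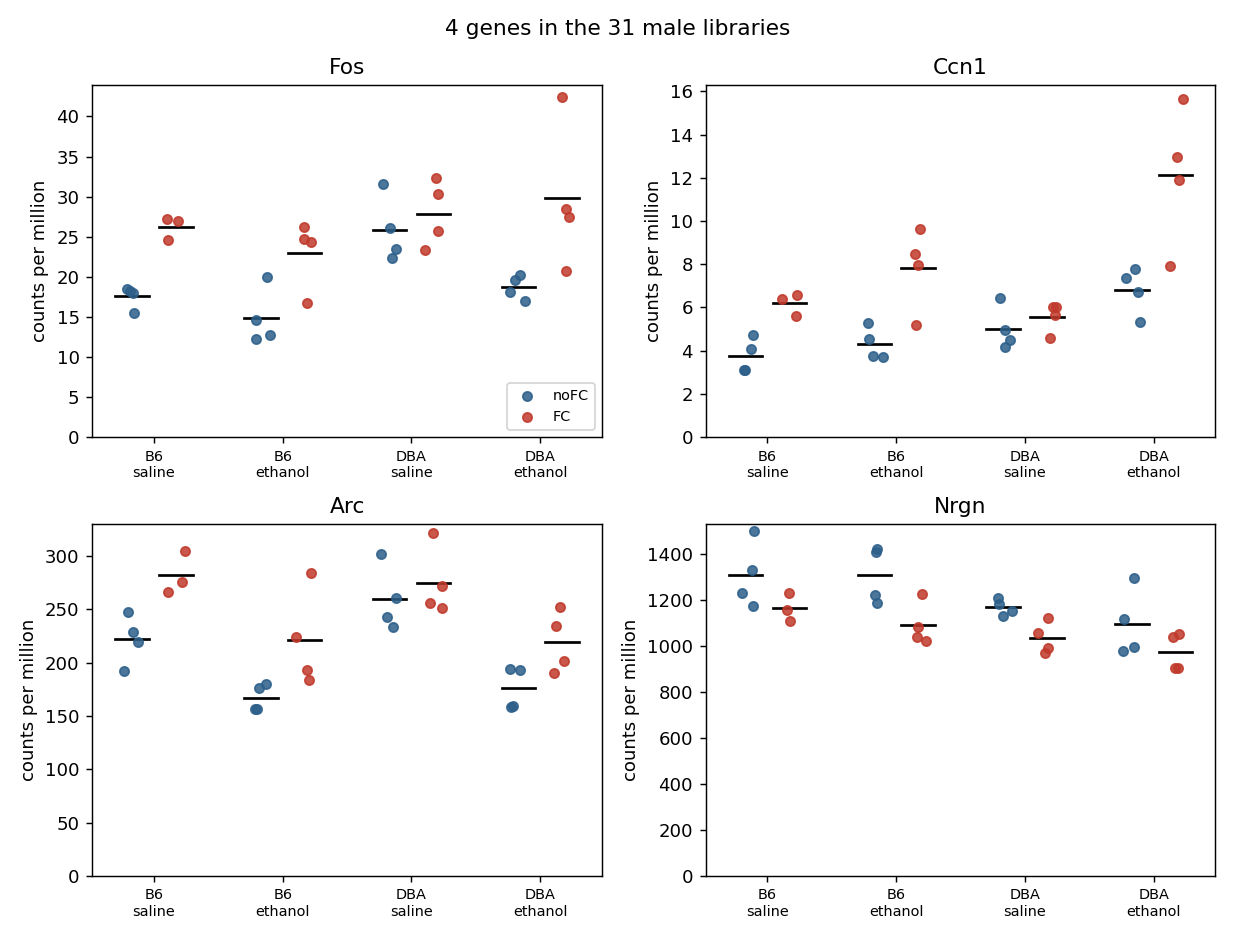
CPM of Fos, Ccn1, Arc and Nrgn in each of the 31 male libraries (vertical axes, starting at 0), by strain and injection (horizontal axes), with noFC in blue, FC in red and group means as bars. For Fos the conditioned libraries lie above their controls without overlap in C57BL/6J males given saline and in DBA/2J males given ethanol, while in DBA/2J males given saline the points overlap.

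Across the whole transcriptome no gene passed the threshold in the main test: 0 of 19583 genes were called in edgeR, with the smallest adjusted p at 0.0583 for Ccn1 and Fos together. At an unadjusted p under 0.05 there were 3132 genes (16%), where 979 would be expected if no gene differed, split evenly into 1586 higher and 1546 lower. DESeq2 on the same design called 51 genes, 27 higher and 24 lower, and Ccn1, Fos, Arc, Btg2, Klf6, Sik1 and Apold1 were among those higher. The largest differences among the higher calls were those of Col24a1 (1.46), Ngb (1.30), Ankfn1 (0.98) and Foxp2 (0.91), which are in none of the activity lists. When each of the 31 libraries was left out in turn, 24 fits called no gene and 7 called between 1 and 4, always including Ccn1. Those 7 were the fits without the libraries titled B6_M_noFC_SAL_310_B (1 gene), B6_M_noFC_EtOH_310_D (4), DBA_M_FC_SAL_312_A (2), DBA_M_noFC_SAL_312_B (3), DBA_M_FC_SAL_320_C (2), B6_M_FC_EtOH_322_A (2) and DBA_M_FC_EtOH_324_A (3). Adding the title number as a replicate block also called Ccn1 and Fos, each with an adjusted p of 0.0281, and a fit over all 63 libraries called the same pair, each at 0.00525.

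Besides Ccn1, Fos and Arc, the smallest p-values for higher expression belonged to Mttp, Grb10, Hist1h2ad, Col12a1 and Zfp36l1, which are in none of the activity lists. Mttp, the microsomal triglyceride transfer protein, had 10.4, 13.1 and 16.5 CPM in FC and 9.38, 11.1 and 14.1 in noFC libraries, a difference of 0.21 (SE 0.04, adjusted p 0.102). Grb10, an imprinted adaptor of insulin receptor signalling, had 22.7, 33.6 and 42.9 CPM in FC and 19.5, 23.6 and 31.8 in noFC libraries. For Grb10, 9 of 15 FC libraries lay above the highest noFC library, and the difference was 0.43 (SE 0.09, adjusted p 0.102). Hist1h2ad, a histone gene of a class whose transcripts mostly lack a polyA tail, averaged 0.295 against 0.162 CPM. Col12a1, a collagen, differed by 0.39 (SE 0.09) and Zfp36l1, an RNA-binding protein that destabilises mRNAs, by 0.32 (SE 0.07), each with an adjusted p of 0.168.

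The smallest p-values for lower expression belonged to Spred2 and Nrgn. Nrgn (neurogranin), a postsynaptic protein that holds calmodulin, had 901, 1050 and 1230 CPM in FC and 975, 1200 and 1500 in noFC libraries as lowest, median and highest. In 13 of 15 FC libraries it lay below the noFC median, and the difference was -0.19 (SE 0.04, adjusted p 0.168). Spred2, an inhibitor of Ras to ERK signalling, had 89.2, 104 and 117 CPM in FC and 105, 117 and 124 in noFC libraries. For Spred2, 9 of 15 FC libraries lay below the lowest noFC library, and the difference was -0.14 (SE 0.03, adjusted p 0.102). Dcakd (-0.22), Sh3bgrl3 (-0.16), Tspan5 (-0.15), Fam174b (-0.15), Pgam2 (-0.31) and the adhesion protein Nlgn3 (-0.11) completed the group, each with an adjusted p of 0.168.

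The delayed activity genes, which follow the early wave, did not share its direction. Of 24 members 12 were positive, with a median of -0.01. At an unadjusted p under 0.05 there were 2 higher and 5 lower, where 8.1% of all genes were higher and 7.89% lower. Nptx2, a secreted pentraxin that clusters AMPA receptors, had 28, 38.5 and 46.3 CPM in FC and 37.1, 44.1 and 53.7 in noFC libraries. It lay below the noFC median in 14 of 15 FC libraries and differed by -0.23 (SE 0.06, adjusted p 0.168). Plk2, a kinase that weakens active synapses, differed by -0.19 (SE 0.05) and Dusp6, an ERK phosphatase, by -0.14 (SE 0.04). Bdnf, the neurotrophin of late plasticity, differed by -0.14 (SE 0.07, adjusted p 0.289), and Homer1 by -0.02 (SE 0.09, adjusted p 0.926).

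Among the synaptic lists, the postsynaptic scaffold and adhesion genes stood lowest. Of 20 members 19 were negative, with a median of -0.08. At an unadjusted p under 0.05, 8 were lower and 1 higher, where 7.89% of all genes were lower and 8.1% higher. Dlg4, which encodes the scaffold PSD-95, differed by -0.13 (SE 0.04), and Psd by -0.16 (SE 0.05), with adjusted p of 0.169 and 0.171. The list of cyclic AMP, calcium and ERK signalling genes was split evenly, 13 positive and 13 negative. Within it, Camk2a, the alpha subunit of the calcium kinase needed for hippocampal potentiation, had 3540, 4300 and 5040 CPM in FC and 4030, 4820 and 5680 in noFC libraries, a difference of -0.16 (SE 0.05, adjusted p 0.174). Camk2b differed by -0.19 (SE 0.06), while Pde4b, which breaks down cyclic AMP, differed by 0.12 (SE 0.03). Glutamate receptor subunits were negative in 9 of 15 (median -0.06) and GABA-A receptor subunits in 9 of 12 (median -0.06). Grik3, a kainate receptor subunit, differed by 0.25 (SE 0.08) and Gabra5, an extrasynaptic GABA-A subunit of pyramidal cells, by -0.20 (SE 0.06).

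Stress lists held scattered differences. Of 21 glucocorticoid-induced genes 13 were positive (median 0.07). At an unadjusted p under 0.05, 3 were higher and 2 lower, where 8.1% of all genes were higher and 7.89% lower. Fkbp5, a co-chaperone of the glucocorticoid receptor, differed by -0.13 (SE 0.06) and Sgk1 by 0.16 (SE 0.11), neither past the threshold. The sign of Sgk1 was not stable, at -0.005 in the libraries with the lower title numbers. Per1, a clock gene that is also an early gene, differed by 0.14 (SE 0.06, adjusted p 0.231). Of 18 cytosolic heat shock genes 14 were positive (median 0.04), led by Hspb1 at 0.44 (SE 0.16), Hspa1a at 0.38 (SE 0.17) and Dnajb1 at 0.19 (SE 0.05), with adjusted p between 0.169 and 0.255. Hspa1a rested on 1 library: it differed by 0.18 without DBA_M_FC_SAL_320_C, and its group spanned 4.62 to 20.7 CPM. Among stress hormone and monoamine receptors 6 of 20 were higher and 5 lower at an unadjusted p under 0.05, against 8.1% and 7.89% of all genes. Adra2a, the alpha-2A adrenergic receptor, differed by 0.32 (SE 0.08), and the dopamine receptor Drd5 by -0.25 (SE 0.08). In the FoxO and energy stress list, Sesn3 differed by 0.14 (SE 0.04) and Bcl6 by -0.20 (SE 0.05), and 8 of 16 members were positive. Ribosomal protein genes were negative in 30 of 32 with a median of only -0.02, and nuclear respiratory chain genes in 21 of 23 with a median of -0.04. Endoplasmic reticulum stress genes (12 of 17 positive), cholesterol synthesis genes (11 of 16), clock genes (10 of 15), histone acetylation and DNA methylation enzymes (12 of 21) and the 13 genes of the mitochondrial genome (6 positive) had medians between -0.002 and 0.018.

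**Figure D2:**
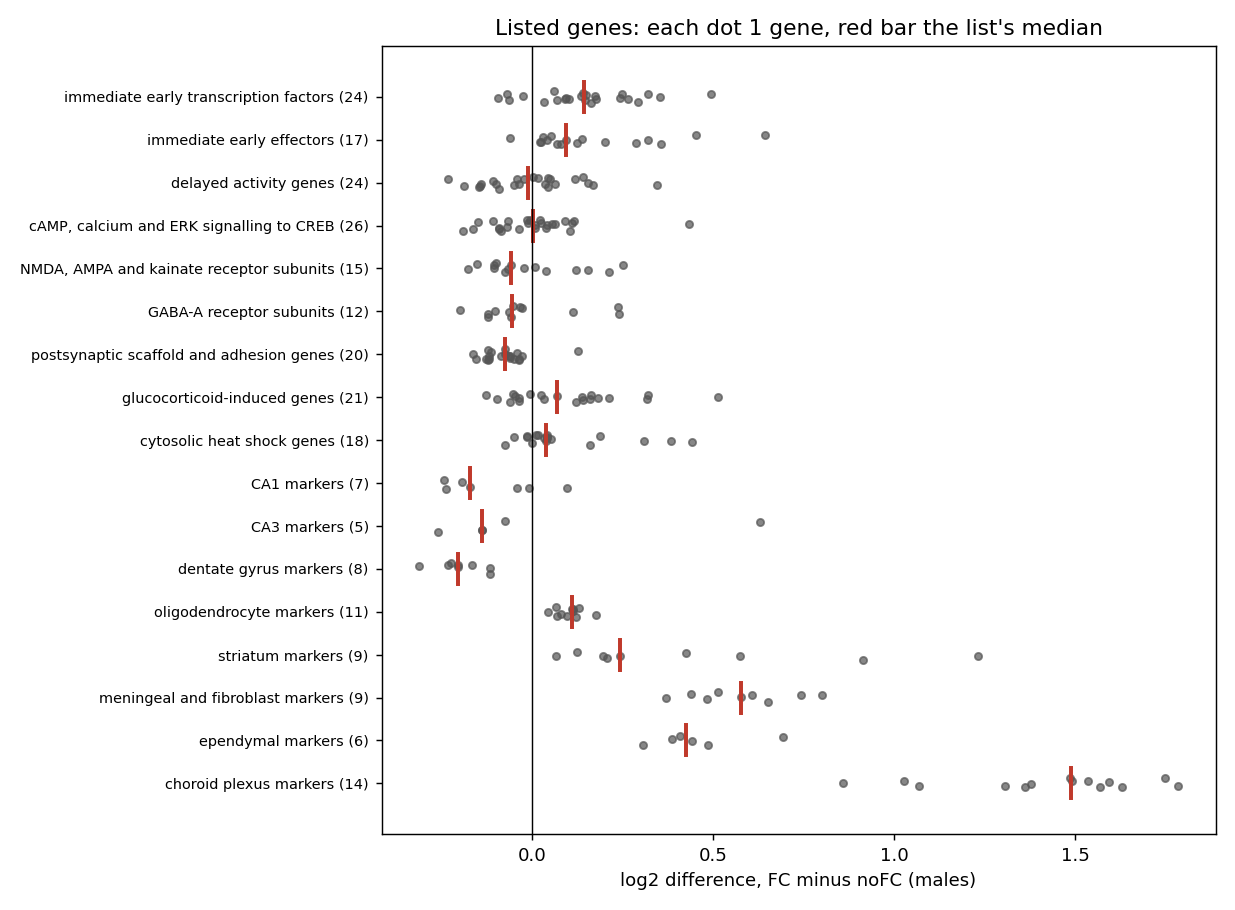
Log2 difference between FC and noFC in males (horizontal axis) for every tested gene of 17 lists (vertical axis, number of genes in brackets), each dot 1 gene and each red bar the list's median. Immediate early genes lie to the right of 0 with medians of 0.14 and 0.09, dentate gyrus and CA1 markers to the left with medians of -0.21 and -0.17, and choroid plexus markers far to the right at 1.49.

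Ccn1, Fos and Arc had positive differences within each strain and each injection. Egr2, Npas4, Klf6, Btg2, Sik1, Apold1 and Dusp1 also averaged higher in FC libraries in each strain and injection group. Fosb, Junb, Egr1, Egr4, Nr4a1 and Nr4a2 averaged lower in FC libraries in DBA/2J males given saline. In DBA/2J males 18 of 24 early transcription factors and 12 of 17 effectors were positive, and in DBA/2J males given saline Egr1 averaged 178 CPM in FC and 206 in noFC libraries. In C57BL/6J males 1 gene was called in edgeR (0.00511% of 19583): Col5a2, a fibrillar collagen chain, rose by 0.58 on the log2 scale (SE 0.10, adjusted p 0.037). Its C57BL/6J values were 9.59 to 12.5 CPM against 6.7 to 7.5 under saline and 9.76 to 14.7 against 7.39 to 10 under ethanol, so the ranges did not overlap under saline. The call was lost in 16 of the 31 fits that left out 1 library, with the highest adjusted p at 0.185 without B6_M_FC_SAL_322_C. It was also lost with the replicate block, where the difference was 0.57. In DBA/2J males Col5a2 differed by -0.06 (SE 0.09), and the strain difference of -0.64 (SE 0.13) had an adjusted p of 0.779 in edgeR and of 0.0402 in DESeq2.

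In the same C57BL/6J fit Ccn1 differed by 0.78, Apold1 by 0.60 and Fos by 0.61, with adjusted p of 0.074, 0.074 and 0.142. At an unadjusted p under 0.05, 14 of the 24 immediate early transcription factors were higher in C57BL/6J males and none lower, where 7.57% of all genes were higher and 5.79% lower. Of the dentate gyrus markers 7 of 8 were lower there, against 0 of 8 in DBA/2J males, and the part of tissue composition was not tested. In DBA/2J males 3 of the 24 factors were higher and none lower, where 2.26% of all genes were higher and 1.93% lower. In DBA/2J males no gene was called in edgeR (0%), 821 genes (4.19%) had an unadjusted p under 0.05, DESeq2 also called none, and Ccn1 differed by 0.49 and Fos by 0.39. The strain difference in the response called no gene in edgeR (0%, 508 genes or 2.59% at an unadjusted p under 0.05, 1.05% higher and 1.54% lower in DBA/2J) and 1 in DESeq2. Of the 24 early factors 2 were lower and none higher in DBA/2J by that test. For Fos it was -0.21 (SE 0.17, DBA/2J minus C57BL/6J), for Ccn1 -0.29 (SE 0.20) and for Apold1 -0.47 (SE 0.16), each with an adjusted p of 1, so a different response of the strains was not shown.

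In males given ethanol 1 gene was called in edgeR (0.00511%): Ccn1 rose by 0.85 (SE 0.14, adjusted p 0.0214). Conditioned libraries had 5.19 to 9.64 CPM against 3.72 to 5.27 in C57BL/6J males and 7.92 to 15.7 against 5.32 to 7.77 in DBA/2J males, with overlap only in the former. This call was lost in 11 of the 31 fits that left out 1 library, with the highest adjusted p at 0.127 without B6_M_noFC_EtOH_322_B. DESeq2 called a single gene in this comparison, Arc, at an adjusted p of 0.0433. Its default filter can leave genes with lower counts without an adjusted p. Whether Ccn1 and Fos had one here was not examined, so their absence from the DESeq2 calls cannot be read as a difference between the tests. Fos differed by 0.65 (SE 0.12) and Arc by 0.36 (SE 0.08) in edgeR, with adjusted p of 0.091 and 0.358. At an unadjusted p under 0.05, where 9.67% of all genes lay (5.05% higher and 4.62% lower), 11 of the 24 early transcription factors were higher and none lower.

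In males given saline no gene was called in edgeR (0%) or DESeq2, and 2155 genes (11%) had an unadjusted p under 0.05, 8.16% higher and 2.84% lower. Of the 24 early transcription factors 5 were higher and 1 lower, while all 14 choroid plexus and all 9 meningeal markers were higher. There Ccn1 differed by 0.43 (SE 0.14), Fos by 0.34 (SE 0.12) and Arc by 0.22 (SE 0.09). The difference between ethanol and saline in the response called no gene in edgeR (0%, 1049 genes or 5.36% at an unadjusted p under 0.05, 1.72% higher and 3.64% lower under ethanol) or DESeq2. By that unadjusted test all 14 choroid plexus markers and 1 of the 24 early transcription factors differed, the markers lower and the factor higher under ethanol. It was 0.42 (SE 0.20) for Ccn1, 0.31 (SE 0.17) for Fos and 0.15 (SE 0.12) for Arc, each with an adjusted p of 0.932 or more.

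Markers of the dentate gyrus and CA1 had mostly lower values in the conditioned libraries, none of them past the threshold. All 8 dentate gyrus markers were negative (median -0.21), 4 of them at an unadjusted p under 0.05, where 7.89% of all genes were lower. Their sum ranged from 280 to 607 CPM in FC (median 485) and from 351 to 682 in noFC libraries (median 562), with 2 of 15 FC libraries above the noFC median. Prox1, the transcription factor that keeps granule cell identity, had 84.7, 138 and 176 CPM in FC and 94.9, 164 and 202 in noFC libraries, a difference of -0.20 (SE 0.07, adjusted p 0.197). Lct differed by -0.31 (SE 0.11). Of 7 CA1 markers 6 were negative (median -0.17), and their sum ranged from 523 to 723 CPM in FC and from 583 to 856 in noFC libraries. Wfs1, an endoplasmic reticulum protein of CA1 pyramidal cells, lay below the noFC median in 15 of 15 FC libraries and differed by -0.19 (SE 0.06, adjusted p 0.171), and Fibcd1 by -0.24 (SE 0.08). CA3 markers were negative in 4 of 5 (median -0.14), the exception being Coch at 0.63, and CA2 markers were positive in 4 of 6 (median 0.01), 1 higher and 1 lower at an unadjusted p under 0.05.

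Striatum, meningeal and choroid plexus markers all had positive differences in males as a whole, none past the threshold. At an unadjusted p under 0.05, 8.1% of all genes were higher. All 9 striatum markers were positive (median 0.24, 5 at an unadjusted p under 0.05), and their sum was 67.7 to 150 CPM in FC and 65.5 to 123 in noFC libraries. Drd2, the dopamine receptor of one class of striatal projection neurons, had 2.02, 3.9 and 7.11 CPM in FC and 1.84, 2.51 and 4.83 in noFC libraries and differed by 0.43 (SE 0.17, adjusted p 0.234). Gpr6 and Rgs9, of the same list, differed by 0.57 and 0.24. All 9 meningeal and fibroblast markers were positive (median 0.58, 5 at an unadjusted p under 0.05), with sums of 89.6 to 974 CPM in FC and 70.6 to 653 in noFC libraries. Dcn (decorin), a matrix proteoglycan of the meninges, had 8.61, 17.2 and 47 CPM in FC and 7.36, 9.98 and 31 in noFC libraries and differed by 0.65 (SE 0.23, adjusted p 0.19). Ogn and Aldh1a2, of the same list, differed by 0.74 and 0.58.

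All 14 choroid plexus markers were positive (median 1.49), none with an unadjusted p under 0.05. Ttr had 16.8, 598 and 9760 CPM in FC and 15.2, 74.7 and 6150 in noFC libraries, and Kcnj13 and Aqp1 differed by 1.63 and 1.57. No marker of the choroid plexus, meningeal, striatum, dentate gyrus or CA1 lists was at 0 in any male library. Under saline the fitted choroid median was 3.93 and under ethanol -0.52, although the median of the summed level was higher in FC in both: 378 against 102 CPM under saline and 984 against 155 under ethanol. The libraries with the lower title numbers (7 FC and 8 noFC libraries) had a choroid median of -0.41 and those with the higher title numbers (8 and 8) one of 2.60. The early transcription factors had a positive median log2 difference in both (0.15 and 0.10). Their median summed level was 1220 CPM in FC against 1120 in noFC libraries with the lower numbers. With the higher numbers it was 1120 against 1150. All 11 oligodendrocyte markers were positive (median 0.11), and microglia, astrocyte and endothelial markers had medians between -0.03 and 0.06. Interneuron markers were positive in 8 of 12 (median 0.06), neocortex markers in 4 of 6 (0.07), thalamus markers in 4 of 6 (0.12), habenula markers in 3 of 5 (0.04), mural cell markers in 7 of 7 (0.07) and blood markers in 0 of 5 (-0.14). The part that any of these tissues plays in the differences of other genes was not tested.

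**Figure D3:**
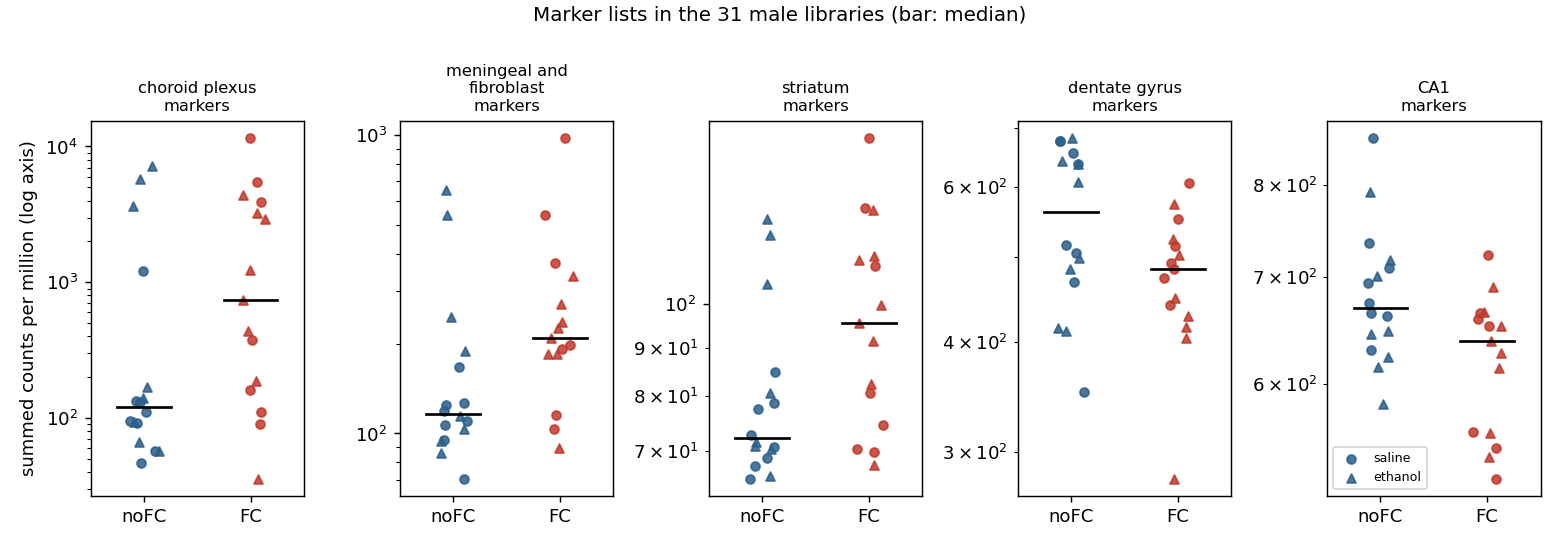
Summed CPM of 5 marker lists (log vertical axes) in each male library, noFC in blue and FC in red, circles for saline and triangles for ethanol, with the median as a bar. Choroid plexus sums spread from 35.9 to 11480 CPM and overlap between the groups, and the dentate gyrus median is 485 CPM in FC against 562 in noFC libraries.

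The early genes were then recomputed with these markers in the model. For gene counts the fit with the choroid plexus mean was planned, and the others were chosen after the data were seen. With the means of the choroid plexus, striatum, dentate gyrus and CA1 markers as 4 covariates, Fos differed by 0.31 (unadjusted p 1.18e-05, adjusted p 0.231), Arc by 0.28 (unadjusted p 0.000206) and Ccn1 by 0.43 (unadjusted p 0.000337). With the dentate gyrus mean alone, Fos differed by 0.31, Ccn1 by 0.42 and Arc by 0.23. Dusp1 moved further, from 0.32 to 0.09 with the 4 means, and Sik1 from 0.45 to 0.14. With the choroid plexus mean alone, Fos (0.55, adjusted p 0.0122) and Ccn1 (0.68, adjusted p 0.0236) were called in edgeR.

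Lower neuronal genes moved towards 0 in the fit with 4 means. The dentate gyrus and CA1 means come from neuronal markers that were mostly lower in FC libraries themselves. The fit therefore cannot separate tissue composition from expression per cell. Nrgn went from -0.19 to -0.07, Nptx2 from -0.23 to -0.05, Dlg4 from -0.13 to -0.02 and Camk2a from -0.16 to 0.00. The postsynaptic scaffold list went from 1 of 20 positive to 12 of 20, with a median of 0.01. Of the immediate early transcription factors 20 of 24 were positive with a median of 0.09, though Egr1 and Nr4a2 were now negative, and 5 of them had an unadjusted p under 0.05. Over all genes 645 had an unadjusted p under 0.05 in that fit and none was called. The main test had 3132 such genes, and 979 would be expected if no gene differed. With a single mean as covariate there were 669 for the striatum, 1529 for the dentate gyrus and 2125 for the choroid plexus. Where the 12 libraries above a choroid mean of 3 were left out (7 FC and 12 noFC libraries remained), Fos differed by 0.51, Ccn1 by 0.66, Arc by 0.23 and Nrgn by -0.22, with no gene called and adjusted p of 0.257 or more.

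**Figure D4:**
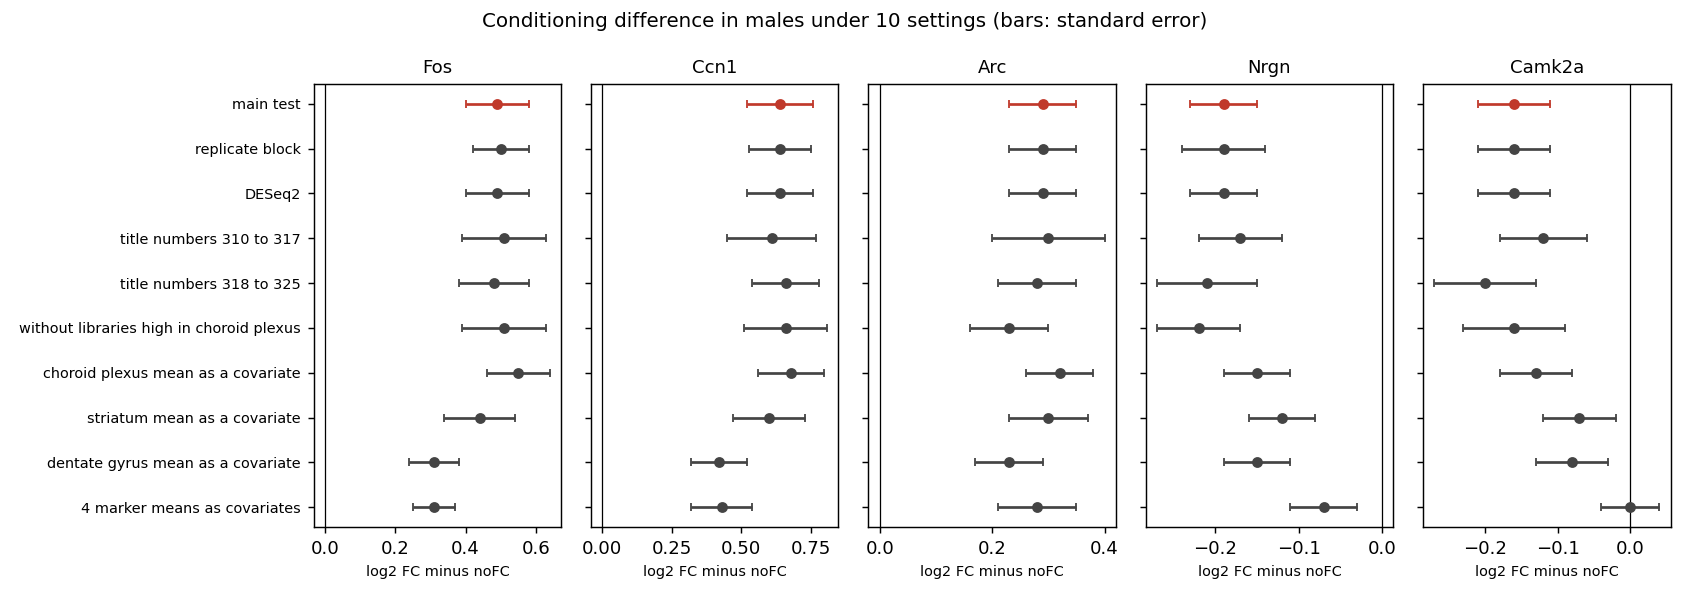
Log2 difference between FC and noFC in males with its standard error (horizontal axes) for Fos, Ccn1, Arc, Nrgn and Camk2a under the main test (red) and 9 alternatives (vertical axis). Fos and Arc stay above 0 in each, at 0.31 and 0.28 with 4 marker means, whereas Camk2a lies at 0.00 there.

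The same contrast in the 32 female libraries gave smaller values for Ccn1 and Fos and, for most postsynaptic scaffold genes and dentate gyrus and CA1 markers, values of the opposite sign, with no sex difference past the threshold. In a fit over all 63 libraries, Ccn1 differed by 0.19 in females (SE 0.11) and by 0.64 in males, and the sex difference was 0.45 (SE 0.16, unadjusted p 0.00626). Fos differed by 0.26 in females, with a sex difference of 0.23 (SE 0.12, unadjusted p 0.0633). Arc differed by 0.26 in females and 0.29 in males, and Btg2 by 0.14 in females and 0.15 in males. No gene was called for the sex difference in edgeR (0% of 19974), with 86 genes sharing the smallest adjusted p of 0.0715, while 3689 genes (18.5%) had an unadjusted p under 0.05 and DESeq2 called 434.

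Of the immediate early transcription factors 21 of 24 were positive in females, close to the 20 of 24 in males. The postsynaptic scaffold list was positive in 19 of 20 members in females and in 1 of 20 in males, and 11 of 20 were lower in males than in females at an unadjusted p under 0.05, where 9.65% of all genes were lower and 8.82% higher. Dentate gyrus markers were positive in 7 of 8 in females and 0 of 8 in males, CA1 markers in 7 of 7 and 1 of 7, and striatum markers in 1 of 9 and 9 of 9. Oligodendrocyte markers were positive in 0 of 11 in females and 11 of 11 in males, and ependymal markers in 0 of 6 and 6 of 6. Mural cell markers were positive in 1 of 7 and 7 of 7, endothelial markers in 1 of 9 and 7 of 9, and meningeal markers in 3 of 9 and 9 of 9. Ribosomal protein genes (1 of 32 and 2 of 32) and microglia markers (1 of 10 and 2 of 10) were mostly negative in both sexes. Glutamate receptor subunits were mixed in both, positive in 9 of 15 in females and 6 of 15 in males. GABA-A subunits were positive in 7 of 12 and 3 of 12. Dlg4 differed by 0.06 in females, with a sex difference of -0.19 (SE 0.05), and Camk2a by 0.08, with a sex difference of -0.24 (SE 0.07). Grb10 differed by -0.15 in females, with a sex difference of 0.58 (SE 0.14, adjusted p 0.0715). The part that tissue composition plays in these sex differences was not tested.

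**Figure D5:**
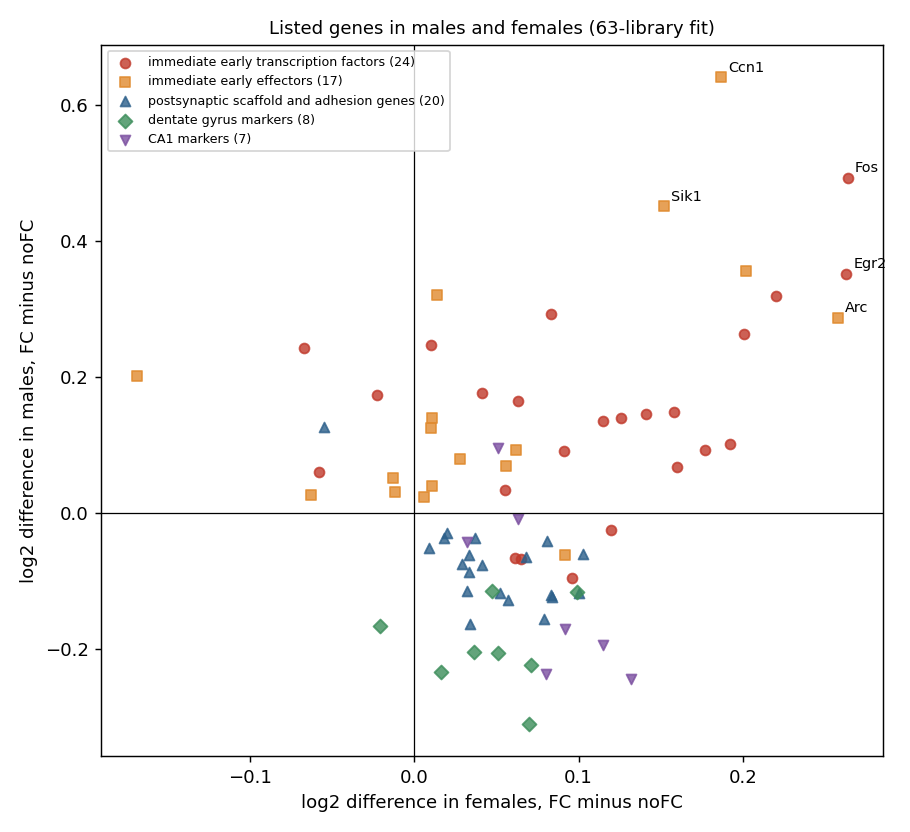
Log2 difference between FC and noFC in males (vertical axis) against that in females (horizontal axis) for genes of 5 lists, from the 63-library fit, each symbol 1 gene. Most immediate early genes lie in the upper right, with Fos at 0.49 and 0.26, while 19 of 20 postsynaptic scaffold genes lie below 0 in males.

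The division of a gene's counts among its transcripts, here called transcript usage, differed between FC and noFC in 27 of 9359 genes tested with limma's diffSplice at an adjusted p under 0.05, with 904 genes at an unadjusted p under 0.05 where 468 would be expected. The smallest p belonged to Mpdz, which encodes a large scaffold protein of tight junctions and synapses (adjusted p 0.00244). Its transcript Mpdz-202 held 23.0% ± 8.46 (SD, n = 15) of the gene's counts in FC and 12.2% ± 5.86 (SD, n = 16) in noFC libraries. The lowest, median and highest shares were 7.09, 23.3 and 39.3% in FC and 2.11, 12 and 21.5% in noFC libraries, and 9 of 15 FC libraries lay above the highest noFC library. The share of Mpdz-201 was 67.3% ± 8.47 in FC and 78.2% ± 5.75 in noFC libraries, so the share of Mpdz-202 rose and that of the most abundant form was lower.

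Both transcripts lie on the minus strand of chromosome 4 (GRCm38, GENCODE M21). Mpdz-201 spans 81278505 to 81442807 with 47 exons and Mpdz-202 spans 81278505 to 81421242 with 45, all of which Mpdz-201 shares. Mpdz-201 alone has a noncoding first exon at 81442636 to 81442807 and a coding exon of 99 bases at 81313500 to 81313598, and the proteins are 2055 and 2022 residues long. The shift was seen in both strains: 22.7% against 12.4% in C57BL/6J and 23.2% against 12.1% in DBA/2J. The total of Mpdz was 72.1 CPM in FC and 71.5 in noFC libraries, a log2 difference of 0.02 (edgeR adjusted p 0.769). The call remained in all 31 fits that left out 1 library, with the replicate block (adjusted p 0.0014) and with the choroid mean (0.00364) or the 4 means (0.0204) as covariates, both chosen for transcript usage after the data were seen. It was lost without the libraries high in choroid plexus (adjusted p 0.245), where the shares were 21.2% ± 8.61 in 7 FC and 13.1% ± 5.9 in 12 noFC libraries.

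The genes with the next smallest p for usage included Cbs, Naa40, Trmu and 2310022A10Rik. Cbs, the enzyme that makes cystathionine from homocysteine, had 28.5% ± 13.9 of its counts on Cbs-203 in FC and 16.4% ± 16.7 in noFC libraries. Naa40, which acetylates the ends of histones H4 and H2A, had 14.2% ± 2.8 on Naa40-204 in FC and 9.83% ± 4.97 in noFC libraries, each with an adjusted p of 0.0107. For Trmu, a tRNA-modifying enzyme, and 2310022A10Rik the shares of the leading transcripts differed by less than their SD (10.2% ± 6.07 against 9.07% ± 8.84 for Trmu-206). The difference of Cbs-203 was also smaller than the SD of either group, and that of Naa40-204 smaller than its noFC SD. Homer1, whose short form is made in active neurons, Bdnf, with its alternative first exons, and Arc showed no call, with adjusted p of 0.935, 0.954 and 0.962.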

How the data were processed

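Polyadenylated RNA was sequenced in 63 libraries, and the 31 male ones were analysed. Per the submitters' processing notes, fastp, HISAT2, featureCounts, Salmon, DESeq2 and build GRCm38 were used. The authors deposited raw counts per gene and Salmon's estimated counts per transcript, which were rounded here. Single-end 75 nt reads limit how well transcripts are told apart. Genes with at least 10 counts in enough libraries were kept (19583 of 55401 rows, 99.94% of counts). edgeR 4.0.16 (TMM, quasi-likelihood test, strain and drug as covariates, Benjamini-Hochberg over all genes) was the main test, DESeq2 1.42.0 an alternative. Contrasts within strain or drug used a coefficient per group, and transcript usage limma 3.58.1 (transcripts with at least 5% of their gene's counts). CPM are TMM-scaled. Tests were checked on simulated data. The gene lists and members were chosen with earlier results of these data known. Genes were named by a fixed rule: the smallest p per comparison and list, plus a fixed set of activity genes. No 2 libraries of a group agreed within sampling noise.
Some results are not reported here.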

Additional observations from a re-analysis of the deposited data

Results flagged for a closer look

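In groups of 4 libraries of 1 strain, injection and conditioning state, 154 sets of values were examined for a library far from the other 3, and 11 (7.14%) stood apart, where chance gives about 1 in 20. The choroid plexus sum was 1207 CPM in B6_M_noFC_SAL_322_D (next 132.8) and 3659 in B6_M_noFC_EtOH_318_B (next 141.3). Ttr was likewise 1013 and 3175 CPM there. DBA_M_noFC_SAL_312_B had the lowest Prox1 of its group, at 94.91 CPM, and the highest CA1 sum, at 855.7. The CA1 sum was also high in DBA_M_noFC_EtOH_320_B, at 792.1. Wfs1 was low in B6_M_FC_EtOH_310_C, at 128.6 CPM. In conditioned DBA/2J males given saline, Mttp was high in DBA_M_FC_SAL_316_A, at 16.47 CPM, and Nptx2 in DBA_M_FC_SAL_312_A, at 46.28. The summed immediate early effectors were low in DBA_M_noFC_EtOH_324_B, at 505.2 CPM.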

How the results depend on the processing

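With RLE scaling, no count of calls and no direction of a named result changed. Title numbers were tested as a replicate block in place of strain. Libraries sharing a number deviated together at a correlation over 0.1 in 12 of 15 pairs (median 0.295, range -0.153 to 0.655). In 9 pairs the best correlation, among the 4 noFC libraries of the same strain and injection, was with their own number. Not every pair deviated together, and the main test left the numbers out. What the numbers stand for is not given in the labels. For conditioning in males, where edgeR called 0 genes, 2 were called with the replicate block, without a filter on low counts, with 1 coefficient per group, with all 63 libraries and with the choroid plexus mean. DESeq2 called 51, low against high title number as a covariate 4, and the libraries with the higher title numbers alone 18. All 18 were higher and included Ccn1 but not Fos. Among them were Col1a2, of the meningeal and fibroblast list, and Spp1, Fmod, Serping1 and Col9a2. Leaving out 1 library gave 0 to 4.

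In C57BL/6J males the 1 call became 11 in DESeq2, 7 without the filter and 0 to 8 without 1 library (8 without B6_M_FC_EtOH_322_A). With the block the 1 call was Ccn1, and Col5a2 was at 0.566 (adjusted p 0.054). In ethanol males the 1 call became 2 without the filter, 4 with the block and 0 to 3 without 1 library, and in DBA/2J and saline males it stayed 0 in each. The strain difference had 0 calls in edgeR and 1 in DESeq2. The sex difference had 0 in edgeR, 434 in DESeq2, 345 with the block and 0 to 529 without 1 library, with more than 0 in 7 of 63 fits. Transcript usage (27 genes) became 211 with no minimum share (26 of the 27 among them), 48 with the choroid mean (12 of the 27), 46 with 4 marker means (5), 32 with the block (7), 19 without libraries high in choroid plexus (3) and 18 to 41 without 1 library (41 without DBA_M_FC_EtOH_324_A).

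The median of glutamate receptor subunits (-0.058) was 0.019 in libraries with the lower title numbers, 0.038 with the striatum mean, 0.034 with 4 means and 0.028 without libraries high in choroid plexus. Meningeal markers were at -0.103 in libraries with the lower title numbers, cAMP signalling genes at -0.042 in those with the higher ones, postsynaptic genes at 0.011 with 4 means and CA2 markers at -0.204 without the high libraries. Signs turned in libraries with the lower title numbers for Homer1 (0.047), Sgk1 (-0.005), Ttr (-0.036), Ogn (-0.032), Kcnj13 (-0.251) and Aqp1 (-0.417), and in those with the higher ones for Nr4a2 (-0.052). Homer1 was 0.047 with the choroid mean, 0.045 with the striatum mean, 0.056 without the high libraries and up to 0.022 without 1 library, with 0, 0.002 and 0.013 in 3 other such fits. With the dentate gyrus mean Egr1 was -0.059 and Nr4a2 -0.154. With 4 means the values were Egr1 -0.064, Nr4a2 -0.026, Fkbp5 0.008, Sgk1 -0.002, Gabra5 0.006, Fibcd1 0.006 and Dcn -0.108. Fibcd1 is itself part of the CA1 mean in that fit, which draws its value towards 0. Without 1 library Nr4a2 ranged from -0.001 (without DBA_M_FC_EtOH_312_C) to 0.134. The cause of these changes was not tested. The striatum, dentate gyrus and 4-mean covariates and the removal of libraries high in choroid plexus were chosen after seeing the data, as was the choroid mean for transcript usage.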
